A study of Mus musculus with 24 samples.

Results

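The genes described here carry and answer bone morphogenetic protein (BMP) signals: the ligand Bmp7, the type I receptors Bmpr1a and Bmpr1b, the type II receptor Bmpr2, the inhibitory Smads Smad6 and Smad7, and the inhibitor of DNA binding genes Id1, Id2, Id3 and Id4. They were taken by symbol, and all 10 were found among the 39017 genes of the count tables. RNA-seq was made from cells sorted from mouse embryonic cortex at E15.5, in 24 libraries that form 6 groups of 4. KO cells carry Emx1Ires-Cre together with Prdm16flox/flox, and WT cells carry the floxed Prdm16 alleles without Cre. In each genotype PAX6+ cells are labelled as radial glia, TBR2+ cells as intermediate progenitors and PAX6-TBR2- cells as cortical neurons. Prdm16 encodes a transcriptional regulator of the PR domain family, and the comparison of genotypes asks how its loss changes expression in each population. Emx1 is active in the lineage of the dorsal telencephalon, so cells that come from elsewhere, such as interneurons and vascular cells, are not expected to have lost Prdm16. Because Cre and the modified Emx1 allele are present in KO cells alone, their effects and that of Prdm16 loss cannot be told apart.

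BMP ligands bring type I and type II receptors together, and the type I kinase then phosphorylates the Smads that enter the nucleus with Smad4 and switch on target genes. Smad6 and Smad7 block this step at the receptor and are themselves targets, as are Id genes. Id proteins have a helix-loop-helix region but no DNA-binding region; they bind E proteins and so keep proneural factors from DNA. In the developing cortex BMP signals pattern the dorsal midline and act on the choice between proliferation, neurogenesis and later astrocyte formation, and Id genes are known for keeping progenitors undifferentiated.

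Levels are counts per 1 M counts (CPM) of the library total after TMM scaling over all 24 libraries. The depth of the PAX6+ libraries ran from 7.62 to 12.6 M counts, that of the TBR2+ libraries from 6.4 to 8.22 M, and that of the PAX6-TBR2- libraries from 4.95 to 8.64 M, with 1 exception: replicate 4 of WT PAX6-TBR2- held 30.0 M counts. Leaving that deep library out changed no call of any of the 10 genes. The summed radial glia, intermediate progenitor and neuron markers were each highest in the population labelled for them. Neuron markers were also high in WT TBR2+ libraries, with a sum of 5273 to 6501 CPM. That sum was 362 to 442 CPM in WT PAX6+ and 7650 to 8883 CPM in WT PAX6-TBR2- libraries. The intermediate progenitor sum in WT TBR2+ libraries was 2096 to 2522 CPM. Sorted populations are therefore not read as pure stages. Prdm16 had 187 ± 27.2 CPM in KO PAX6+ cells and 253 ± 34.1 CPM in WT PAX6+ cells (SD, n = 4 each). Its log2 fold change there was -0.43 (SE 0.12, adjusted p = 0.058 in edgeR's quasi-likelihood test). The replicate block brought the adjusted p to 4.9e-04, the lowest of 6 other settings, of which 3 called it and the highest gave 0.370. Of 8 fits that left out 1 library 2 called it, with adjusted p-values of 0.019 to 0.232. In TBR2+ cells Prdm16 had 42.3 to 59.9 CPM in KO and 46.1 to 79.5 CPM in WT libraries (adjusted p = 0.900, same test). In PAX6-TBR2- cells it had 11.3 to 29.2 CPM in KO and 13.7 to 33.5 CPM in WT libraries (adjusted p = 0.814, same test). Lower Prdm16 RNA was thus not called in these populations. The counts cover the whole gene, so reads from outside the deleted part are included. Mecom, a related gene, had 18.8 ± 1.90 CPM in KO PAX6+ cells and 1.33 ± 0.30 CPM in WT PAX6+ cells (SD, n = 4 each). The labels name no embryos or litters, so p-values measure the spread between these libraries.

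The stretches of 250 bases before the RefSeq start of Id2, Id3, Id4 and Bmpr1b (build GRCm38.p6) are shown first. Id2 and Bmpr1b were the members called between genotypes in PAX6+ cells in the fit without a block. Id3 and Id4 are Id genes that were not called in that fit. Each is printed 5′ to 3′ on the gene's own strand, with GGCGCC (a GC-rich Smad motif, its own reverse complement) and GTCTG or its reverse complement CAGAC (the Smad-binding element) in capitals. They lie at chr12:25096093-25096342 (minus strand) for Id2, chr4:136143572-136143821 (plus strand) for Id3, chr13:48260866-48261115 (plus strand) for Id4 and chr3:141982265-141982514 (minus strand, the start farthest 5′ of 3 listed) for Bmpr1b.
Id2: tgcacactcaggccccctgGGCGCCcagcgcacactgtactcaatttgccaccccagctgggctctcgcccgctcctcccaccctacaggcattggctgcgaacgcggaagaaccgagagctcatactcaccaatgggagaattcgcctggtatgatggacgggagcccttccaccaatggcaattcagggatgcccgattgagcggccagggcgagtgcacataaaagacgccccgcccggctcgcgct
Id3: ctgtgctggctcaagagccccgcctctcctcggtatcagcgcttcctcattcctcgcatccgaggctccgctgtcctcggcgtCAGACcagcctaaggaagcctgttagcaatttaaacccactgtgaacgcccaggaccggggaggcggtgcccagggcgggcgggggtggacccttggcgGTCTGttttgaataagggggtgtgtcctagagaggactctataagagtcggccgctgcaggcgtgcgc
Id4: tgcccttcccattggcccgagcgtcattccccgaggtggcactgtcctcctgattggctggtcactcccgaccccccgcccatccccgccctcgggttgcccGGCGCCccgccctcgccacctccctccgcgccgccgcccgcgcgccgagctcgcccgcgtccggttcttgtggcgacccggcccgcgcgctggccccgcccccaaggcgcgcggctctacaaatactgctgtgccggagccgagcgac
Bmpr1b: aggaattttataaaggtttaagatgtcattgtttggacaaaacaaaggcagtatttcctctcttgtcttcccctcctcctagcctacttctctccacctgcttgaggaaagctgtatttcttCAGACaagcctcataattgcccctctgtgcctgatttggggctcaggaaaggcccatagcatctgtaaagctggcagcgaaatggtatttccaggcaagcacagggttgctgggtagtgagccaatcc

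Windows were found for 7 of the 10 genes, 9 windows in all. By the GENCODE gene bounds, the windows of Id2, Id3, Bmpr1a, Bmpr1b and Bmpr2 lay inside the gene. Bmpr1b spans chr3:141837136-142169425 on the minus strand, so its annotated 5′ end lies far upstream of its windows. The stretch before that end was not examined. GGCGCC was present once in the window of Id2, 231 bases before the start, and once in that of Id4, 148 bases before it. It was also present once before Bmpr1a and once before Bmpr2. Of all 32851 RefSeq windows of this length, 9.59% held GGCGCC on either strand. That share was not matched for base content. The share of G and C was 62.8% in the window of Id2, 75.6% for Id4, 78.8% for Bmpr1a and 64.0% for Bmpr2. In the windows without GGCGCC it ran from 46.8% (Bmpr1b) to 66.8% (Smad6). The window of Id3 held the GTCTG motif on both strands, 167 and 68 bases before the start, and the window shown for Bmpr1b held it once, 128 bases before the start. GTCTG or CAGAC was present in 42.2% of all windows. No window shown held both motifs. The Smad6 window held neither motif. These matches describe the letters of the windows and say nothing of binding.

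In PAX6+ cells, Id2 and the receptor gene Bmpr1b were higher in KO than in WT, and none of the 10 genes was lower. That is 2 of 10 tested members called at an adjusted p under 0.05, against 3.64% of the 14212 genes tested (2.45% higher and 1.19% lower). Their median log2 fold change was 0.20, and that of all genes tested was 0.002. These values are from the fit without a block. With the replicate number as a block, Id2 and Bmpr1b stayed called. Id4 was then called higher in KO as well (adjusted p = 0.0015, edgeR's quasi-likelihood test). Of the 14212 genes tested, 1045 were called with the block, against 517 without it. In TBR2+ and PAX6-TBR2- cells no member was called.

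**Figure D1:**
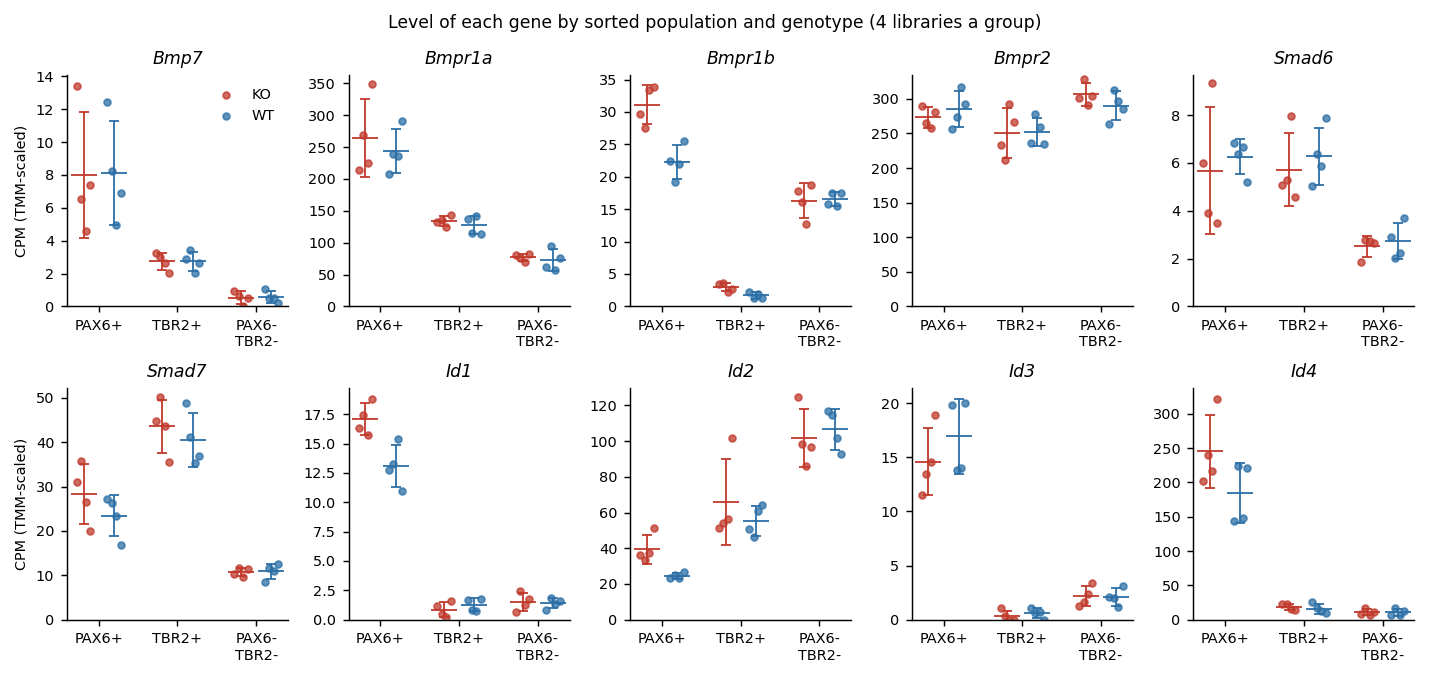
Level of each of the 10 genes in CPM (y axis, linear, from 0) in PAX6+, TBR2+ and PAX6-TBR2- cells (x axis), with KO libraries in red to the left of WT libraries in blue; points are the 4 libraries, the long bar is the mean and the whiskers are 1 SD. Id1, Id3 and Id4 are highest in PAX6+ cells, Id2 is highest in PAX6-TBR2- cells, and the KO and WT points of Id1, Id2 and Bmpr1b do not overlap in PAX6+ cells.

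Id2, the Id gene that continues to be expressed in neurons, had 36.2, 33.3, 37.1 and 51.2 CPM in the 4 KO PAX6+ libraries, against 23.5, 25.1, 23.2 and 26.6 CPM in the WT PAX6+ libraries. Every KO library lay above every WT library, and KO replicate 4 was the highest. The fold was 1.61 (log2 fold change 0.69, SE 0.14, adjusted p = 0.0087, edgeR's quasi-likelihood test). The call held in all 8 fits that left out 1 library, with a log2 fold change of 0.54 to 0.77, and in the 6 other settings tried. Bulk RNA cannot tell a change in the RNA of each cell from a change in the share of cells that express the gene.

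Id1, a direct BMP target in many cells, had 16.3, 17.4, 15.7 and 18.8 CPM in KO PAX6+ libraries, against 12.7, 13.3, 15.4 and 11 CPM in WT PAX6+ libraries. The lowest KO library was above the highest WT library, but the log2 fold change of 0.38 (SE 0.15) had an adjusted p of 0.254 in edgeR's quasi-likelihood test. The ranges of KO and WT libraries did not overlap for 3 of the 10 genes in PAX6+ cells, Id1, Id2 and Bmpr1b, each with KO above WT; of the 15091 genes kept over all libraries 8.18% did not overlap, and 4.71% had KO above WT. The ranges of all 10 members overlapped in TBR2+ and in PAX6-TBR2- cells, where 6.33% and 3.99% of all genes did not overlap.

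Id4, which can oppose the other Id proteins as well as bind bHLH factors, had 202, 240.3, 217 and 322 CPM in KO PAX6+ libraries, against 144, 224, 148 and 221 CPM in WT PAX6+ libraries. The groups overlapped, since WT replicates 2 and 4 lay above KO replicate 1. At each replicate number, however, KO was above WT. The log2 fold change was 0.42 (SE 0.17, adjusted p = 0.284, edgeR's quasi-likelihood test), and with the replicate number as a block it was 0.42 with an adjusted p of 0.0015. Without a filter on low counts the adjusted p was 0.014. Id4 was called in these 2 of the 6 other settings, over which the adjusted p ran from 0.0015 to 0.523. It was called in 0 of the 8 fits that left out 1 library, with adjusted p-values of 0.167 to 0.650. Exons of Id4 overlap those of A330033J07Rik on the opposite strand over 82 bases and those of Gm49291 over 171 bases, and the strand setting of the counting is not given in the sources used here; A330033J07Rik had a median count of 10.5, against 122 for Id4.

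Id3, another target of BMP signals and the closest companion of Id1 in many tissues, had 11.5, 13.5, 14.6 and 18.9 CPM in KO PAX6+ libraries, against 19.8, 13.8, 14 and 20.1 CPM in WT PAX6+ libraries. The groups overlapped. Its log2 fold change of -0.20 (SE 0.18, adjusted p = 0.785, edgeR's quasi-likelihood test) had the opposite sign to those of Id1, Id2 and Id4, with a 95% interval of -0.59 to 0.20.

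Bmpr1b, a type I receptor, had 29.7, 27.5, 33.3 and 33.9 CPM in KO PAX6+ libraries, against 22.4, 19.2, 21.9 and 25.6 CPM in WT PAX6+ libraries. Every KO library was above every WT library, with 27.5 CPM in the lowest KO library and 25.6 CPM in the highest WT library. The fold was 1.41 (log2 fold change 0.49, SE 0.13, adjusted p = 0.048, edgeR's quasi-likelihood test). The call stood close to the threshold: it was lost in 7 of the 8 fits that left out 1 library, kept without WT replicate 4, with adjusted p-values of 0.043 to 0.170. It was kept in 5 of the 6 other settings, and with DESeq2 size factors the adjusted p was 0.052.

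Bmpr1a, the other BMP type I receptor here, had 214 to 349 CPM in KO PAX6+ libraries and 208 to 292 CPM in WT PAX6+ libraries, and its log2 fold change was 0.12 (SE 0.14, adjusted p = 0.845, edgeR's quasi-likelihood test). Its exons overlap the opposite-strand gene Gm17110 over 290 bases, which had a median count of 15, against 856.5 for Bmpr1a. Bmpr2, the type II partner of both, had 257 to 289 CPM in KO and 257 to 317 CPM in WT PAX6+ libraries, with a 95% interval of the log2 fold change of -0.25 to 0.14. The ranges of KO and WT overlapped for both genes.

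The inhibitory Smads and the ligand were not called in PAX6+ cells. Smad7, which blocks both BMP and TGF-beta receptors, had 31.0, 35.7, 26.5 and 20.1 CPM in KO libraries. In WT libraries it had 27.2, 26.4, 23.3 and 16.9 CPM, so KO was above WT at each replicate number. Its log2 fold change was 0.28 (SE 0.18, adjusted p = 0.627, edgeR's quasi-likelihood test). The 6 other settings, the replicate block among them, gave adjusted p-values of 0.160 to 0.699. Smad6, which acts mainly on the BMP branch, had 6.0, 3.91, 9.32 and 3.49 CPM in KO libraries, against 6.84, 6.37, 6.66 and 5.19 CPM in WT libraries. KO libraries held both the highest and the lowest Smad6 values, and the 95% interval of its log2 fold change ran from -0.73 to 0.44. Bmp7 had 4.57 to 13.4 CPM in KO and 4.97 to 12.4 CPM in WT libraries, with replicate 1 highest in both genotypes and an interval of -0.69 to 0.63.

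**Figure D2:**
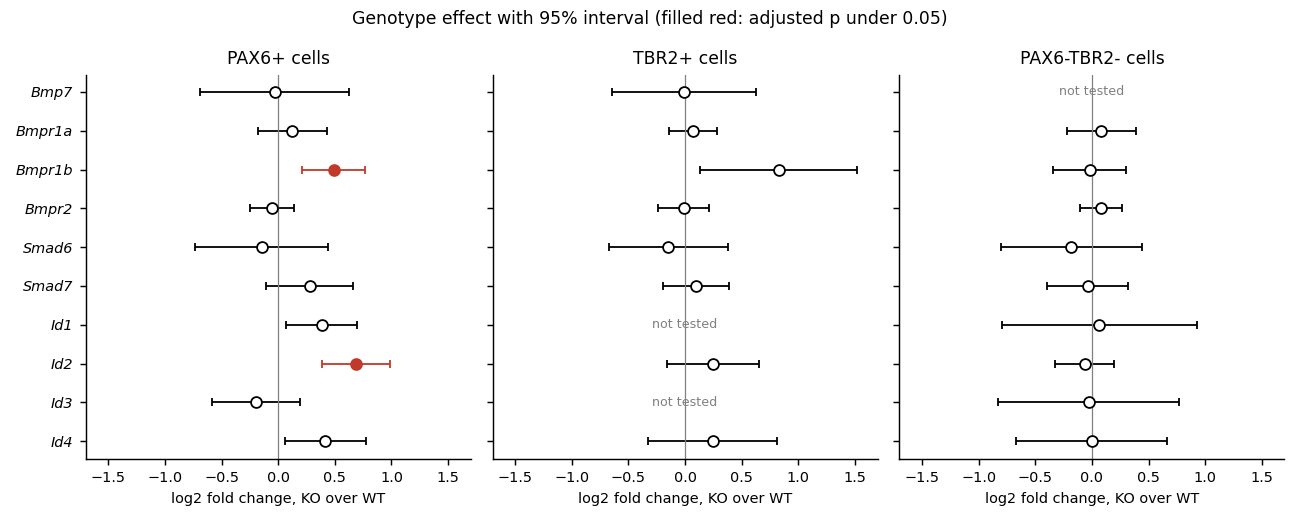
Log2 fold change of KO over WT (x axis) for each gene (rows) in PAX6+, TBR2+ and PAX6-TBR2- cells (panels from left to right), with the 95% interval from edgeR's quasi-likelihood fit; filled red points passed an adjusted p of 0.05. Id2 at 0.69 and Bmpr1b at 0.49 in PAX6+ cells are the filled points; Id1 and Id3 in TBR2+ and Bmp7 in PAX6-TBR2- cells had too few counts to be tested.

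Markers of other cell types in the same PAX6+ libraries were compared, since Id and Smad genes are also expressed in vessels and meninges. The summed level of 8 endothelial and mural markers was 4.94 to 29.7 CPM in KO and 13.6 to 31.1 CPM in WT libraries, with at most 1 of them at 0 in a KO library and none in a WT library. The sum of 5 meningeal markers was 1.06 to 3.60 CPM in KO and 3.29 to 4.78 CPM in WT libraries, with up to 2 at 0 in a KO library and up to 1 in a WT library. The medians were 12.5 CPM in KO and 20.6 CPM in WT for the endothelial and mural sum, and 1.79 CPM in KO and 4.03 CPM in WT for the meningeal sum. The sum of 8 neuron markers was 373 to 387 CPM in KO and 362 to 442 CPM in WT libraries. The sum of 8 radial glia markers was 3536 to 4126 CPM in KO and 3147 to 3580 CPM in WT libraries, and that of 6 intermediate progenitor markers was 319 to 423 CPM in KO and 356 to 510.2 CPM in WT libraries. The sum of 5 Cajal-Retzius markers was 19.2 to 96.3 CPM in KO (median 28.6) and 31.4 to 292 CPM in WT libraries (median 45.1); none of the 3 tested was called, and their median log2 fold change was -1.33. By edgeR's quasi-likelihood test 1 of 8 radial glia markers was called higher in KO. Called lower in KO were 2 of 6 intermediate progenitor markers, 1 of 8 neuron markers, 1 of 4 tested interneuron markers, 1 of 2 tested meningeal markers and 1 of 2 tested glial precursor markers, and none of 6 tested endothelial and mural markers was called. The part of these differences in the results for Id2 and Bmpr1b was not tested.

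In TBR2+ cells 8 of the 10 genes had enough counts to be tested and none was called, against 1.76% of the 12687 genes tested. Bmpr1b had 3.42, 3.64, 2.27 and 2.67 CPM in KO TBR2+ libraries, against 2.28, 1.31, 1.84 and 1.31 CPM in WT TBR2+ libraries. The groups overlapped narrowly, at KO replicate 3 and WT replicate 1, and the libraries held 12 to 23 counts in KO and 8 to 15 counts in WT. The log2 fold change of 0.83 (SE 0.33) had an adjusted p of 0.300 in edgeR's quasi-likelihood test, and 0.096 to 0.668 over the other settings.

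Id2 had 51.2, 54.3, 56.5 and 101.9 CPM in KO TBR2+ libraries, against 50.9, 46.1, 60.8 and 64.2 CPM in WT TBR2+ libraries. KO replicate 4 stood far above the other libraries, and the remaining KO values lay within the WT range. The log2 fold change was 0.25 (SE 0.19, adjusted p = 0.688, edgeR's quasi-likelihood test), and -0.04 with KO replicate 4 left out. Id1 and Id3 were near the floor in TBR2+ cells: libraries held 1 to 10 counts of Id1 in KO and 4 to 11 in WT, and 0 to 7 counts of Id3 in either genotype.

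In PAX6-TBR2- cells none of the 9 tested members was called, against 0.00774% of the 12928 genes tested, which is 1 gene; 854 genes had an unadjusted p under 0.05 and DESeq2 called 24. Id2 had 124.8, 98.6, 86.4 and 97.0 CPM in KO libraries, against 117, 114, 102 and 93.0 CPM in WT libraries. The groups overlapped throughout, and the 95% interval of the Id2 log2 fold change was -0.33 to 0.20. Bmpr1b had 17.9, 16.05, 12.7 and 18.7 CPM in KO libraries, against 15.8, 17.4, 15.51 and 17.4 CPM in WT libraries, again overlapping, with an interval of -0.34 to 0.30. Interneuron markers were present in these libraries, with a sum over 6 genes of 344 to 831 CPM in KO and 248 to 682 CPM in WT.

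Whether the genotype effect differed between populations was tested as the difference itself. For Id2 the effect in PAX6-TBR2- cells minus that in PAX6+ cells was -0.75 on the log2 scale (SE 0.19), with an adjusted p of 0.082 in edgeR's quasi-likelihood test. It passed the threshold with the replicate number as a block (0.0019), with DESeq2 (0.037), without a filter on low counts (0.013) and without KO PAX6-TBR2- replicate 1 (0.030), and over all fits that left out 1 library the adjusted p was 0.030 to 0.188. For Id2 in TBR2+ minus PAX6+ cells the difference was -0.44 (SE 0.26, adjusted p = 0.820). For Bmpr1b the difference was -0.51 (SE 0.20, adjusted p = 0.464) in PAX6-TBR2- minus PAX6+ cells and 0.34 (SE 0.29, adjusted p = 0.968) in TBR2+ minus PAX6+ cells. In the fit without a block none of the 10 members was called by edgeR in the 3 tests of a difference, against 0.612% of genes for TBR2+ minus PAX6+, 0.775% for PAX6-TBR2- minus PAX6+ and 0.051% for PAX6-TBR2- minus TBR2+.

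Across the WT populations the Id genes split into a pair of patterns. Id1, Id3 and Id4 were highest in PAX6+ cells and many times lower in both other populations, while Id2 rose from PAX6+ to TBR2+ to PAX6-TBR2- cells. Members called were 2 higher and 6 lower of 10 in TBR2+ over PAX6+ cells (31% of all genes higher and 32.2% lower, 63.2% in all), 1 higher and 8 lower of 10 in PAX6-TBR2- over PAX6+ cells (32.9% and 33.7%, 66.6% in all), and 2 higher and 4 lower of 8 in PAX6-TBR2- over TBR2+ cells (25.6% and 23.4%, 49% in all). A large share of all genes differed between populations, and the members' counts are read against that background. Library names carry a separate prefix for each population, so handling and sequencing cannot be told apart from population in these comparisons.

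Id4 had 9.01 to 25.1 CPM in WT TBR2+ and 144 to 224 CPM in WT PAX6+ libraries, a log2 fold change of -3.51 (SE 0.24, adjusted p = 7.3e-10, edgeR's quasi-likelihood test). In WT PAX6-TBR2- cells it had 6.57 to 17.4 CPM, a log2 fold change of -0.55 against WT TBR2+ cells that was not called (adjusted p = 0.179). It was called without a filter on low counts (adjusted p = 0.030) and without WT PAX6-TBR2- replicate 2 (log2 fold change -0.82, adjusted p = 0.048), and fits that left out 1 library gave -0.82 to -0.24. Id4 was thus highest in PAX6+ cells, and whether the other populations were called apart depended on these settings. Id1 had 11 to 15.4 CPM in WT PAX6+, 0.73 to 1.80 CPM in WT TBR2+ and 0.83 to 1.86 CPM in WT PAX6-TBR2- libraries. Id3 had 13.8 to 20.1 CPM in WT PAX6+, 0 to 1.06 CPM in WT TBR2+ and 1.18 to 3.13 CPM in WT PAX6-TBR2- libraries, and its log2 fold change was -4.72 (SE 0.36) in TBR2+ over PAX6+ cells. Neither Id1 nor Id3 could be tested between WT PAX6-TBR2- and WT TBR2+ cells.

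Id2 ran the other way. Its WT level was 24.6 ± 1.56 CPM in PAX6+, 55.5 ± 8.45 CPM in TBR2+ and 107 ± 11.3 CPM in PAX6-TBR2- cells (SD, n = 4 each). The WT ranges of the 3 populations did not overlap, and the log2 fold changes were 1.19 (SE 0.12) for TBR2+ over PAX6+ and 0.95 (SE 0.12) for PAX6-TBR2- over TBR2+ cells, with adjusted p-values of 1.7e-07 and 1.3e-05 in edgeR's quasi-likelihood test. The mean Id2 level in KO PAX6+ cells, 39.5 ± 8.03 CPM (SD, n = 4), lay between the means of WT PAX6+ and WT TBR2+ cells.

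**Figure D3:**
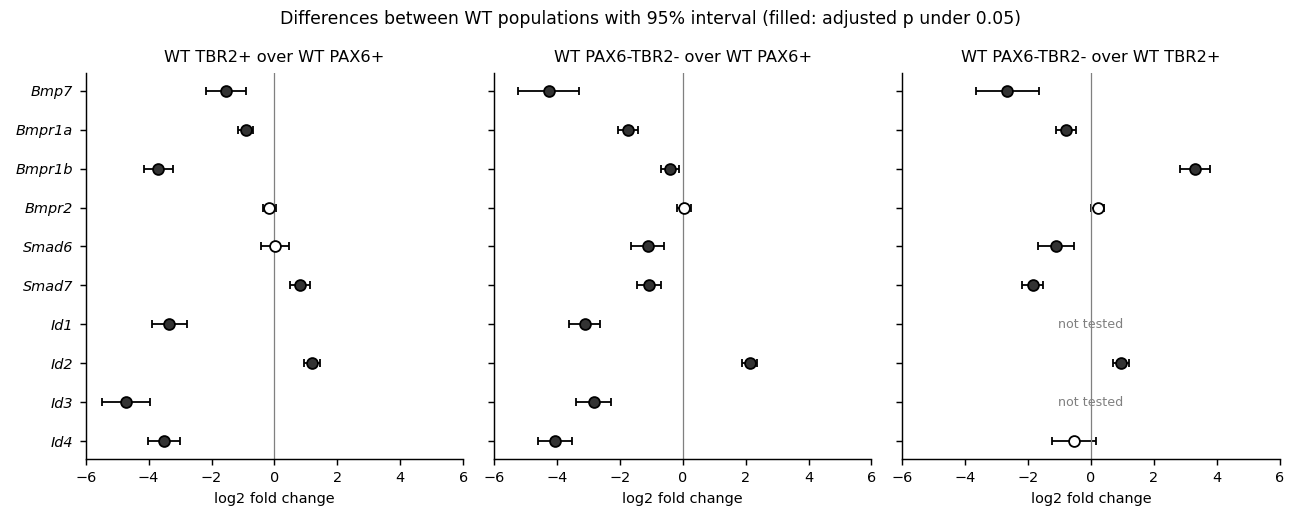
Log2 fold change between WT populations (x axis) for each gene (rows), with the 95% interval from edgeR's quasi-likelihood fit; filled points passed an adjusted p of 0.05. Id2 lies right of 0 in all 3 panels, Bmpr1b is at -3.69 in TBR2+ over PAX6+ cells and at 3.30 in PAX6-TBR2- over TBR2+ cells, and Bmpr2 lies near 0 in all 3.

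On a per-length scale (CPM per kilobase of exon), which allows levels to be compared between genes, the summed Id level was 103 ± 19.6 in KO PAX6+ and 78.8 ± 11.2 in WT PAX6+ cells, 32.9 ± 9.41 in KO TBR2+ and 28.3 ± 2.61 in WT TBR2+ cells, and 47.1 ± 6.18 in KO PAX6-TBR2- and 48.9 ± 4.81 in WT PAX6-TBR2- cells (SD, n = 4 each). Id4 made up most of the Id level in PAX6+ cells, with a share of 61.8% ± 1.97 in KO and 60.2% ± 6.16 in WT. Id2 made up most of it elsewhere, with 81.2% ± 6.87 in KO and 80.2% ± 7.56 in WT TBR2+ cells and 88.5% ± 3.88 in KO and 89.4% ± 3.71 in WT PAX6-TBR2- cells. In PAX6+ cells the share of Id2 was 16.9%, 13.8%, 16.3% and 16% in KO libraries, against 13.9%, 11.7%, 13.8% and 12.2% in WT libraries. These shares overlapped at KO replicate 2 and WT replicate 1.

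**Figure D4:**
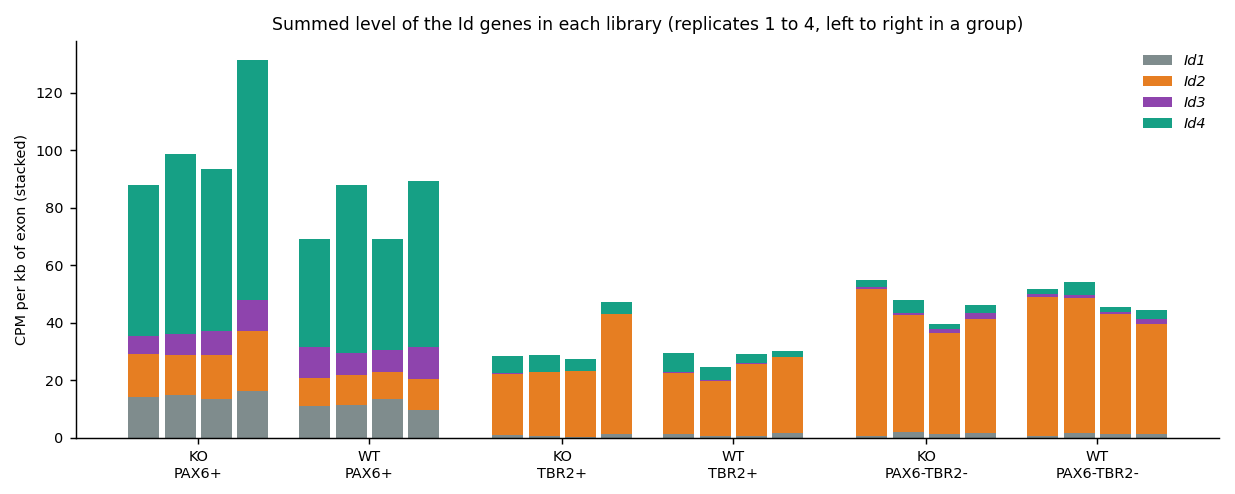
Stacked level of Id1, Id2, Id3 and Id4 in CPM per kilobase of exon (y axis, from 0) in each of the 24 libraries (x axis, KO left of WT in each population). Id4 (green) fills most of the PAX6+ bars and Id2 (orange) most of the TBR2+ and PAX6-TBR2- bars; the tallest bar is KO PAX6+ replicate 4 at 131.

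The receptors followed 3 different courses in WT cells. Bmpr2 had 285 ± 25.8 CPM in PAX6+, 252 ± 20.8 CPM in TBR2+ and 289.9 ± 20.9 CPM in PAX6-TBR2- cells (SD, n = 4 each) and was not called in any of the 3 comparisons, of which the nearest was PAX6-TBR2- over TBR2+ cells (log2 fold change 0.21, SE 0.10, adjusted p = 0.082, edgeR's quasi-likelihood test). Bmpr1a fell from PAX6+ to TBR2+ to PAX6-TBR2- cells, with log2 fold changes of -0.92 (SE 0.11) for TBR2+ over PAX6+ and -0.80 (SE 0.14) for PAX6-TBR2- over TBR2+ cells. Bmpr1b had 19.2 to 25.6 CPM in WT PAX6+, 1.31 to 2.28 CPM in WT TBR2+ and 15.51 to 17.4 CPM in WT PAX6-TBR2- libraries. It was thus lowest in TBR2+ cells, with log2 fold changes of -3.69 (SE 0.21) for TBR2+ over PAX6+ and 3.30 (SE 0.23) for PAX6-TBR2- over TBR2+ cells. Per kilobase of exon, WT levels of Bmpr1b were 3.74 CPM in PAX6+, 0.28 in TBR2+ and 2.77 in PAX6-TBR2- cells. Those of Bmpr1a were 38.4, 20.1 and 11.4 CPM per kilobase in the same order, so Bmpr1a was above Bmpr1b in each population. The type I receptor gene Acvr1 had 6.36, 8.09 and 19.2 CPM per kilobase in that order, above Bmpr1a in PAX6-TBR2- cells alone.

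Bmp7 and the inhibitory Smads were lowest in PAX6-TBR2- cells. Bmp7 had 4.97 to 12.4 CPM in WT PAX6+, 2.02 to 3.43 CPM in WT TBR2+ and 0.18 to 1.04 CPM in WT PAX6-TBR2- libraries, with a log2 fold change of -1.54 (SE 0.30) for TBR2+ over PAX6+ and -2.66 (SE 0.47) for PAX6-TBR2- over TBR2+ cells. Smad7 was highest in TBR2+ cells, with 23.4 ± 4.66 CPM in PAX6+, 40.5 ± 6.11 CPM in TBR2+ and 10.9 ± 1.73 CPM in PAX6-TBR2- cells (SD, n = 4 each, WT), and the log2 fold change of TBR2+ over PAX6+ cells was 0.80 (SE 0.15, adjusted p = 1.8e-04, edgeR's quasi-likelihood test). Smad6 was not called between TBR2+ and PAX6+ cells (log2 fold change 0.01, 95% interval -0.43 to 0.46) and was lower in PAX6-TBR2- than in TBR2+ cells (log2 fold change -1.12, SE 0.27). Smad6 rested on 12 to 106 counts in a library.

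Other genes of BMP and TGF-beta signalling were read from a list of 46. In PAX6+ cells 32 were tested, of which 4 were higher and 1 lower in KO, against 2.45% of all genes higher and 1.19% lower. Their median log2 fold change was 0.06, and that of all genes was 0.0020. The receptor and co-receptor genes held 2 of these calls. Rgma, a BMP co-receptor, had 353 ± 75.4 CPM in KO and 192 ± 26.5 CPM in WT PAX6+ cells (SD, n = 4 each), a log2 fold change of 0.88 (SE 0.14, adjusted p = 0.0013, edgeR's quasi-likelihood test). Acvr2a, a type II receptor for activins and some BMPs, had 88.4 ± 14.1 CPM in KO and 62.1 ± 8.59 CPM in WT cells and a log2 fold change of 0.52 (SE 0.14, adjusted p = 0.046). The others higher in KO were Bmper, a secreted BMP-binding protein (log2 fold change 0.66, SE 0.12, adjusted p = 0.0037), and Tgif1, a corepressor of TGF-beta-responsive Smads (0.56, SE 0.13, adjusted p = 0.019).

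Bmp3, a BMP family member that can oppose other BMPs, was lower, with 0.27 ± 0.22 CPM in KO and 1.36 ± 0.62 CPM in WT PAX6+ cells (SD, n = 4 each). It rests on 1 to 5 counts in a KO library and 11 to 26 in a WT library, and its fitted log2 fold change was -2.30 (SE 0.56, adjusted p = 0.030, edgeR's quasi-likelihood test). None of the 5 tested signal-carrying Smads was called. Of these calls, Acvr2a and Bmp3 were each lost in 6 of the 8 fits that left out 1 library and Tgif1 in 3, while Rgma and Bmper stood in all 8; with all populations in 1 fit the adjusted p was 0.102 for Bmp3 and 0.075 for Bmper. In TBR2+ and in PAX6-TBR2- cells none of 29 tested pathway genes was called.

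**Figure D5:**
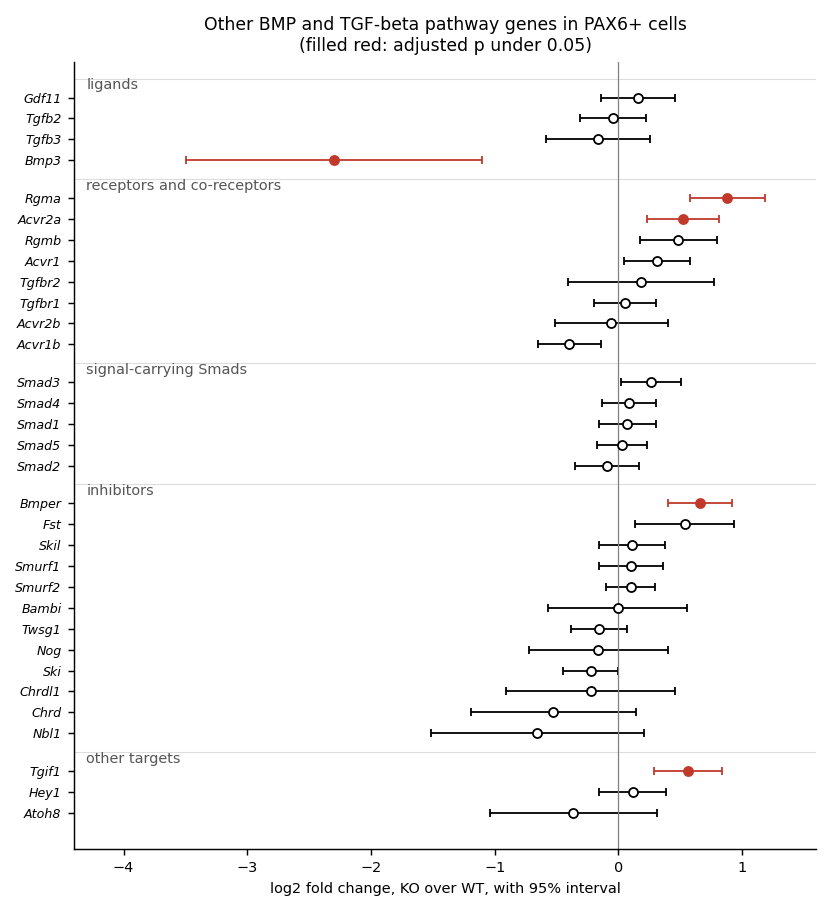
Log2 fold change of KO over WT in PAX6+ cells (x axis) for the 32 tested genes of the BMP and TGF-beta list (rows, grouped by role), with the 95% interval from edgeR's quasi-likelihood fit; filled red points passed an adjusted p of 0.05. Rgma, Acvr2a, Bmper and Tgif1 lie right of 0 and Bmp3 at -2.30, and the other intervals belong to genes that were not called.

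The partners and opponents of Id proteins were read from a list of 11 bHLH genes (E proteins, proneural factors and Hes genes). None of the 10 tested bHLH genes was called in TBR2+ or in PAX6-TBR2- cells. Among the pathway genes, Bmper was the one whose genotype effect differed between populations: its log2 fold change was -0.87 (SE 0.26, adjusted p = 0.136) in TBR2+ cells, and the effect in TBR2+ minus that in PAX6+ cells was -1.53 (SE 0.26, adjusted p = 0.0035, edgeR's quasi-likelihood test).

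The pathway list was also compared between the WT populations. In TBR2+ over PAX6+ cells 11 pathway genes were higher and 16 lower of 32 (31% of all genes higher and 32.2% lower), among them Rgma at -3.27, Smad3, which carries TGF-beta and activin signals, at -3.40, Bmper at -2.40 and Ski, a corepressor of Smads, at -1.55 on the log2 scale. In PAX6-TBR2- over PAX6+ cells 10 were higher and 15 lower of 35 (32.9% and 33.7% of all genes), with Tgif1 at -3.14, the Notch and BMP target Hey1 at -1.93, Rgma at -2.01 and the type I receptor Acvr1 at 1.6. In PAX6-TBR2- over TBR2+ cells 9 were higher and 7 lower of 30 (25.6% and 23.4% of all genes), with Ski at 1.77, Inhba, an activin subunit, at 6.02, Hey1 at -1.36 and Acvr1 at 1.25. All of these values passed edgeR's quasi-likelihood test.

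The bHLH list was compared in the same way, against the same shares of all genes. In TBR2+ over PAX6+ cells 7 bHLH genes were higher and 3 lower of 11 (63.2% of all genes called), and the neuronal differentiation factors Neurod1, Neurod6 and Neurod2 had log2 fold changes of 7.92, 7.20 and 6.41, while the Notch effector Hes1 had -5.40. In PAX6-TBR2- over PAX6+ cells 3 were higher and 7 lower (66.6% of all genes called), with Neurod6 at 7.21, Neurod2 at 6.25, Neurod1 at 4.65 and Hes5, another Notch effector, at -4.35. In PAX6-TBR2- over TBR2+ cells 1 was higher and 7 were lower (49% of all genes called), with Neurod1 at -3.27, the proneural factors Neurog2 at -2.79 and Neurog1 at -2.49, and the E protein Tcf3 at -1.03. Neurod1 was thus highest in WT TBR2+ cells. Against WT PAX6+ cells, Id1, Id3 and Id4 were lower there and Id2 was higher. Against WT PAX6-TBR2- cells, Id2 was lower in WT TBR2+ cells and Id4 was not called.

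The genes whose log2 CPM followed each member most closely over the 24 libraries were ranked by Pearson's r, a description that mostly reflects the differences between populations. Id4 was followed by Cdon (r = 0.99) and Rif1 (r = 0.99), Id1 by Ndc1 and Ttyh1 (both r = 0.96), and Id3 by Cdc7 and Mob3b (both r = 0.96). Cdon encodes a cell-surface co-receptor of hedgehog signalling and Cdc7 a kinase of DNA replication. Id2 was followed by Ralyl and Zfp558 (both r = 0.96). Among the receptors Bmpr1a was followed by Arhgap5 (r = 0.99) and Suz12 (r = 0.98), and Bmpr1b by Ranbp17 (r = 0.97). Bmpr2, the most even of the 10, reached r = 0.79 with Adcy2 and with 4933427D14Rik. Bmp7 was followed by Chek2 and Zic2 (both r = 0.95), Smad6 by Stx4a (r = 0.92) and Tsc22d4 (r = 0.90), and Smad7 by Pard3 and Ddr1 (both r = 0.96).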

How the data were processed

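RNA-seq libraries were made from total RNA of sorted cells, amplified by single primer isothermal amplification without molecular identifiers, per the labels' protocols. Per the submitters' processing notes, the tools were cutadapt, FastQC, STAR, featureCounts and DESeq2 with build mm10; no source used here gives their versions, the annotation or whether strand was used. The authors deposited raw counts per gene and lane, and tables of normalized signal. Lane columns were summed here and replicate libraries differed by more than sampling noise (chi-square per degree of freedom 5.65 to 45.5 over 36 pairs, and 0.976 to 1.02 over 24 pairs of lanes). In the deposited signal values whole reads were recovered for 100% of entries; PAX6+ columns equalled the raw counts and the other groups held 1.44 to 1.70 times as many reads, so the raw counts were used. Library depth limits the precision of Id1, Id3, Bmp7 and Smad6, and intervals cover the spread between libraries.

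Symbols, coordinates and exon lengths came from GENCODE M21 (GRCm38) and sequences from RefSeq GRCm38.p6. Each comparison was fitted in R 4.3.3 by edgeR 4.0.16 (TMM scaling after filterByExpr, two-sided quasi-likelihood F test, Benjamini-Hochberg adjustment over all genes tested, called under 0.05) on the libraries of its own groups; the SE is the log2 fold change divided by the square root of F. Log2 CPM for Pearson's r used a prior count of 2. The code was tested on simulated data. Alternatives were DESeq2 1.42.0, its size factors, no count filter, the replicate number as a block, all populations in 1 fit, recovered reads and leaving out each library.

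The titles number the replicates 1 to 4 in each group. In PAX6+ cells same-numbered KO and WT libraries deviated together (r of 0.15 to 0.33 for the 4 pairs), so the numbers were taken to pair them from the data. The block raised the count of genes called there to 1045, against 517 without it. Values given for PAX6+ cells are nonetheless from the fit without the block, except where the block is named. That fit and the overlap of KO and WT ranges leave the pairing out. Members and lists were chosen with earlier results of these data known. Named were the 10 members, Prdm16 and Mecom, the pathway and bHLH genes called between genotypes, up to 4 per list with the smallest p between WT populations, and the 2 genes most like each member; one of these, an identifier without a symbol, is not printed. One result of the bHLH list in PAX6+ cells is not reported here.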

Additional observations from a re-analysis of the deposited data

Results flagged for a closer look

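Over 66 groups of 4 values (the CPM of the 10 members and the library totals in each group), 3 had a library far from the other 3, where chance gives about 1 in 20 groups. Id2 in KO TBR2+ replicate 4 stood at 101.9 CPM, above the other KO TBR2+ libraries at 51.2 to 56.5 CPM. Smad6 in KO PAX6-TBR2- replicate 1 stood at 1.86 CPM, below 2.63 to 2.78 CPM in the others of its group. The total of WT PAX6-TBR2- replicate 4 was 30.0 M counts. The genotype effect on Bmper differed between populations by -1.53 on the log2 scale (TBR2+ minus PAX6+ cells, adjusted p = 0.0035, edgeR's quasi-likelihood test), and it was called in all 16 fits that left out 1 library.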

How the results depend on the processing

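The direction of Id2 and Bmpr1b in KO over WT PAX6+ cells was the same in every setting tried, as was the call of Id2. Counts of genes called moved by over 1.5 times in these settings. With the replicate block they were 1045 in PAX6+ (517 without it), 720 in TBR2+ (223), 153 in PAX6-TBR2- (1), and 323 (89), 332 (117) and 210 (7) for the genotype effects of TBR2+ minus PAX6+, PAX6-TBR2- minus PAX6+ and PAX6-TBR2- minus TBR2+. Without a count filter they were 728 in TBR2+, 38 in PAX6-TBR2- and 329, 219 and 126 for the differences. DESeq2 called 357 in TBR2+, 24 in PAX6-TBR2-, 163 for TBR2+ minus PAX6+ and 27 for PAX6-TBR2- minus TBR2+. All populations in 1 fit gave 6 in PAX6-TBR2-.

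Leaving out 1 library gave 358 to 529 genes in PAX6+, 121 to 420 in TBR2+, 1 to 3 in PAX6-TBR2-, 71 to 137, 84 to 109 and 3 to 10 for the differences in the order above, and 8080 to 8487, 9192 to 9694 and 5711 to 6391 for WT TBR2+ over PAX6+, PAX6-TBR2- over PAX6+ and PAX6-TBR2- over TBR2+. Same-numbered KO and WT libraries had deviations with r of 0.04 to 0.31 among TBR2+ cells, and r was 0.06 to 0.26 among PAX6-TBR2- cells. Libraries with different numbers gave r of -0.33 to 0.11 and -0.27 to 0.14 in the same order. Not every same-numbered pair was over 0.1, so the numbers were not taken to pair them there, nor between WT populations. These values do not exclude a pairing of KO and WT in TBR2+ or PAX6-TBR2- cells, where the block also raised the counts called. With the block the Id2 difference between PAX6-TBR2- and PAX6+ cells had an adjusted p of 0.0019.

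Signs turned for values near 0 that were not called. In KO over WT PAX6-TBR2- cells Id1 was -0.16 with recovered reads, Id3 was 0.0086 with DESeq2 and 0.067 with the block, and Id4 was 2.8e-05 with DESeq2 size factors, 0.0060 with DESeq2, 0.019 with the block and 0.024 with recovered reads. Bmp7 in TBR2+ was 0.11 with recovered reads. Without a count filter Bmpr2 was -0.018 in WT PAX6-TBR2- over PAX6+ and Smad6 was -0.039 in WT TBR2+ over PAX6+. The cause was not tested. Ranges over fits without 1 library that crossed 0 were, in PAX6+, Bmp7 -0.38 to 0.24, Bmpr1a -0.038 to 0.22 and Smad6 -0.50 to 0.030. In TBR2+ they were Bmp7 -0.12 to 0.11, Bmpr2 -0.091 to 0.063, Id2 -0.040 to 0.35 and Prdm16 -0.18 to 0.13. In PAX6-TBR2- they were Bmpr1a -0.016 to 0.23, Bmpr1b -0.10 to 0.077, Id1 -0.23 to 0.32, Id2 -0.18 to 0.0029, Id3 -0.35 to 0.35, Id4 -0.26 to 0.27, Smad6 -0.29 to 0.084 and Smad7 -0.12 to 0.056. Id4 had -0.37 to 0.15 for TBR2+ minus PAX6+ and -0.56 to 0.024 for PAX6-TBR2- minus TBR2+. Among WT populations Bmpr2 had -0.022 to 0.092 (PAX6-TBR2- over PAX6+) and Smad6 -0.10 to 0.12 (TBR2+ over PAX6+). Group mean levels of the members moved by less than 1 SD in 60 of 60 cases with DESeq2 size factors.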
